A study of Mus musculus with 12 samples.

Results

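Oxidative phosphorylation is carried out by 5 protein complexes in the inner mitochondrial membrane, and the genes that encode their subunits were followed in lung RNA of mice kept in room air or in hyperoxia. The members were all transcript clusters with 1 gene symbol beginning with Nduf, Uqcr, Cox4, Cox5, Cox6, Cox7, Cox8 or Atp5, together with Sdha, Sdhb, Sdhc and Sdhd. A transcript cluster is the set of probes that the array reads as 1 transcript. This rule gave 114 clusters of 89 genes, out of 19938 genes with a cluster of 1 symbol and 35556 clusters in all. Where a gene had several clusters, as 17 members did, the cluster with the highest mean was used. Of the 89 genes, 80 encode subunits: 34 of complex I, 4 of complex II, 8 of complex III, 17 of complex IV and 17 of complex V. The other 9 share only the prefix, and are the 7 assembly factors Ndufaf1 to Ndufaf7, the supercomplex factor Cox7a2l, and Ndufa4l2, a relative of Ndufa4.

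The mice were wild-type C57BL/6J males and females, 8 to 10 weeks old. They stayed in room air or breathed oxygen at an FiO2 above 95% for 48 h. The 12 arrays fell into 4 groups of 3 by sex and exposure, and each array held a pool of whole-lung RNA of 4 mice, so the replicate is the pool and not the single animal. The lung is a mixture of cells, and in its RNA fewer cells of a type and less RNA per cell cannot be told apart. With 3 pools a group, precision is limited by how few arrays there are.

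Complex I takes electrons from NADH and complex II takes them from succinate, and both hand them to coenzyme Q. Complex III passes them on to cytochrome c, complex IV passes them to oxygen, and complex V, the ATP synthase, uses the proton gradient that the others build. Several complex IV subunits exist as isoforms from separate genes: Cox4i2 is the form known from lung and from low oxygen, and Cox6a2, Cox7a1 and Cox8b are the forms known from heart and skeletal muscle. Assembly factors help to put a complex together and are not part of the finished enzyme.

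Members of this family are known to share promoter elements for nuclear respiratory factor 1 (NRF1). In the RefSeq promoters of GRCm38.p6, 73 of the 89 members were found, 5 of them with 2 promoters. The 250 bases before the start were searched on both strands for GCGCANGC, the core of the NRF1 element. A match stood in 18 of the 73 members (24.7%), against 9.38% of 27025 genes with a promoter. The ETS element CCGGAAG was present in 17.8% of the members and 7.83% of all genes, and AANATGGCG, for YY1, in 4.11% and 1.29%. For AAGGTCA, bound by estrogen-related receptors, the shares were 5.48% and 4.7%, and for ACGTG, the core of the hypoxia response element, 20.5% and 18.5%. A match is a description of the letters and no evidence of binding. The promoters of Ndufaf4, which changed most among the members called in both sexes, and of Sdhb, Cox5a and Uqcr10, subunits of complexes II, IV and III that rose in both sexes by the adjusted p, are shown 5′ to 3′ on the strand of the gene, with any NRF1 match in capitals. They lie at chr4:24897833-24898082, chr4:140961021-140961270, chr9:57520982-57521231 and chr11:4704345-4704594 (GRCm38.p6), the last on the minus strand and the others on the plus strand. In Ndufaf4 the capitals hold 2 overlapping matches, since the element reads almost the same on both strands, and in Sdhb they hold 1. Cox5a and Uqcr10 have no match in this window.
Ndufaf4: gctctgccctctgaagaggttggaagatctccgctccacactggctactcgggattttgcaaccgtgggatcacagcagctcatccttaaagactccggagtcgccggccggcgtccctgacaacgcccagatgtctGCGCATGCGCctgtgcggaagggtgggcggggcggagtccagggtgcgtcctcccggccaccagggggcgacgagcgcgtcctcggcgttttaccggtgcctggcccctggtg
Sdhb: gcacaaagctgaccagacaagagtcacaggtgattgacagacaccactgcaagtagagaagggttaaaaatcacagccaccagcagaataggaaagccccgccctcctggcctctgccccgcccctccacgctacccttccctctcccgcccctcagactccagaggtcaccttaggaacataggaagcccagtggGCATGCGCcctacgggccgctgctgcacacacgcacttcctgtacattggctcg
Cox5a: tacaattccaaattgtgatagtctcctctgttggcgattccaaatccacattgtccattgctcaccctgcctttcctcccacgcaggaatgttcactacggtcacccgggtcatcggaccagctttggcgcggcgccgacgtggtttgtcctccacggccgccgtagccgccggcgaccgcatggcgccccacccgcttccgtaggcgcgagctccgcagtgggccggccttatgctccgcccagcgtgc
Uqcr10: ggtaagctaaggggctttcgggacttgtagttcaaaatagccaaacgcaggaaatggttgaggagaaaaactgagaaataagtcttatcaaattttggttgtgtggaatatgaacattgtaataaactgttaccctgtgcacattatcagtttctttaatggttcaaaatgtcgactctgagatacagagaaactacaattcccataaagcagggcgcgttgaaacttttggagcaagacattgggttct

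The first comparison asked how hyperoxia moved the whole family in each sex. Most subunits moved little: the median log2 fold change, hyperoxia over room air, was 0.06 in females and 0.13 in males over the 89 members, against -0.02 and 0.00 over all clusters. A value above 0 was found for 55 of the 89 members (61.8%) in females and for 67 (75.3%) in males, where the shares over all clusters were 45.0% and 49.5%. In females 1 member rose and 2 fell past an adjusted p of 0.05 and a 1.4-fold change (limma, Benjamini-Hochberg over all clusters), beside 3.59% of all clusters called higher and 2.93% called lower. In males 2 members rose and 1 fell, beside 3.94% and 3.39%. The genes were Ndufaf4, higher in both sexes, Cox4i2, lower in both, Ndufa4l2, called lower in females, and Cox6a2, called higher in males.

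With the adjusted p alone, 10 members rose and 4 fell in females, beside 9.08% and 8.62% of all clusters. In males 24 rose and 2 fell, beside 10.0% and 9.30%. The members are genes with 1 symbol, and of all 19938 such genes 2404 rose and 2278 fell in females. In males 2643 of them rose and 2411 fell. These shares are higher than those over all clusters, and the female rise of the members does not exceed them. All 10 members that rose in females also rose in males, and 14 passed in males and not in females. These counts were sensitive to single pools. In females the number that rose was 2 without hyperoxia replicate 3, 3 without room air replicate 2, 5 without room air replicate 1, and 6 without hyperoxia replicate 1 or room air replicate 3. In males it was 10 without hyperoxia replicate 2 or room air replicate 3, and 11, 12 and 13 without hyperoxia replicate 1, hyperoxia replicate 3 and room air replicate 2. Female pools of the same number deviated together, though so did room air replicate 3 and hyperoxia replicate 1, and the labels give no pairing. With the replicate block in females alone 4 members rose by the adjusted p (Ndufaf4, Cox5a, Uqcr10 and Ndufb6). In that fit 4 fell by at least 1.4-fold (Cox4i2, Ndufa4l2, Cox7a1 and Cox8b). Ndufa10, Sdhb, Sdhd, Uqcrq, Cox6a1 and Cox7a2 had adjusted p-values of 0.0517 to 0.0749 there.

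The arrays themselves were also compared without a model. All 3 hyperoxia arrays lay above all 3 room air arrays for 18 members in females and 48 in males, where 14.7% and 16.2% of all clusters did so. They lay below for 14 members in females and 8 in males, where 15.7% and 16.7% of all clusters did so. The mean level of the 89 members was 10.37, 10.26 and 10.38 log2 units on the female room air arrays and 10.41, 10.33 and 10.40 on the female hyperoxia arrays. It was 10.32, 10.23 and 10.24 in male room air and 10.37, 10.41 and 10.35 in male hyperoxia. The male arrays did not overlap and the female arrays did.

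**Figure D1:**
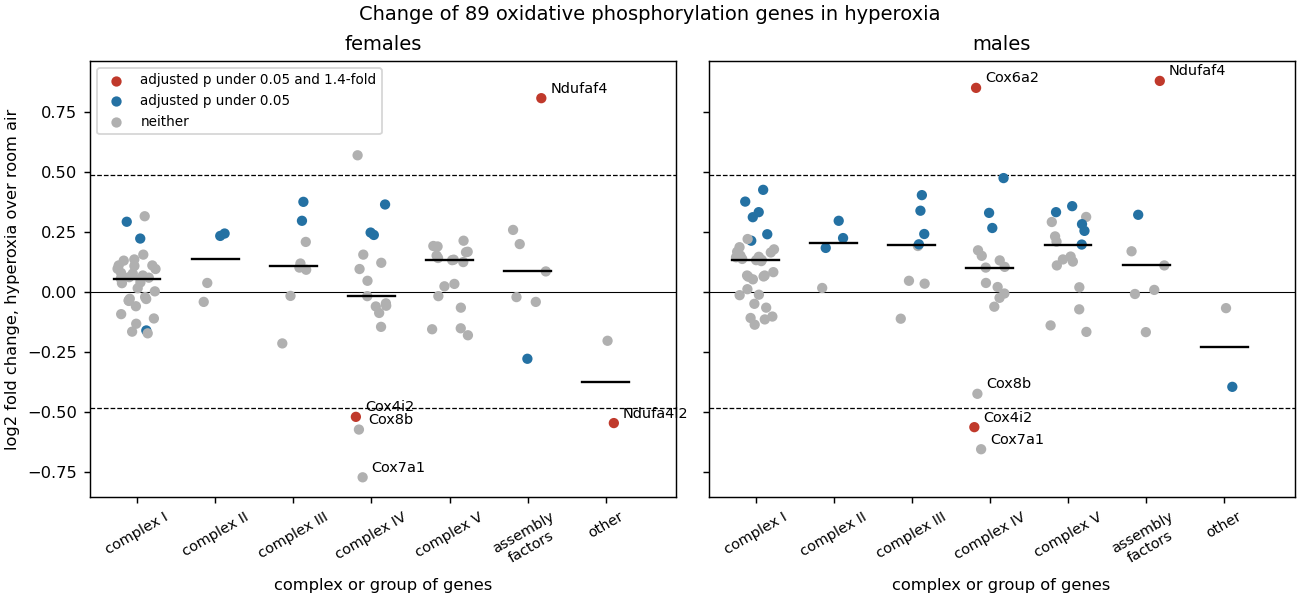
Change in hyperoxia relative to room air (vertical axis, log2 fold change) for each of the 89 genes, 1 point per gene, by complex or group of genes, in females (left) and males (right). Black bars are medians, dashed lines mark a 1.4-fold change, and colours show which genes passed the adjusted p of 0.05. Most points lie within the dashed lines, and the points far from 0 are isoforms of complex IV, Ndufaf4 and Ndufa4l2.

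Complex I changed by small amounts in both directions. Its 34 members had a median of 0.05 on the log2 scale in females (range -0.17 to 0.31) and 0.13 in males (range -0.14 to 0.42). Past the adjusted p, 2 rose and 1 fell in females, and 6 rose and none fell in males, but none reached 1.4-fold. These counts, and those of the complexes below, stand beside 9.08% of all clusters higher and 8.62% lower in females. In males the shares were 10.0% and 9.30%. Among genes with 1 symbol the shares were higher, as given above. Ndufa10, an accessory subunit, had log2 levels of 11.03, 10.83 and 10.92 in female room air and 11.20, 11.28 and 11.17 in female hyperoxia, and of 11.02, 10.76 and 10.77 in male room air and 11.21, 11.23 and 11.22 in male hyperoxia. Its arrays did not overlap in either sex, and the log2 fold changes were 0.29 ± 0.08 (SE, adjusted p = 0.0278 by limma) in females and 0.38 ± 0.08 (adjusted p = 0.00692) in males. Ndufb6, another accessory subunit, passed in males (0.42, adjusted p = 0.031) and not in females (0.31, adjusted p = 0.112), where the fit with the block gave an adjusted p of 0.0424. Ndufb11, an accessory subunit of the membrane arm, went the other way, with -0.16 in females (adjusted p = 0.047) and -0.12 in males (adjusted p = 0.155). The female call of Ndufb11 lay close to the threshold and was lost in females alone with the replicate block (adjusted p = 0.123). Ndufs8, which carries iron-sulfur clusters, was, with Ndufb11, the lowest of this complex by the mean of both sexes, with values of -0.17 and -0.11 that did not pass. Ndufa11, an accessory subunit, rose by 0.24 in males (adjusted p = 0.0168 by limma) with 0.06 in females (adjusted p = 0.672). Its male call was lost with each sex fitted alone (adjusted p = 0.0874) and with the mean of its clusters (adjusted p = 0.0564).

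Complex II is also succinate dehydrogenase of the citric acid cycle, and its 4 subunits did not move alike. Sdha, the flavoprotein that oxidises succinate, differed by -0.04 in females (adjusted p = 0.764) and 0.01 in males (adjusted p = 0.944). Sdhb, the iron-sulfur subunit, stood at 10.33, 10.26 and 10.38 in female room air and at 10.56, 10.55 and 10.56 in female hyperoxia. In males it stood at 10.43, 10.18 and 10.30, and at 10.62, 10.63 and 10.54. The hyperoxia arrays of Sdhb lay above those in room air in both sexes, with log2 fold changes of 0.23 (adjusted p = 0.0397 by limma) and 0.29 (adjusted p = 0.0114). The membrane anchor Sdhd rose by 0.24 in females (adjusted p = 0.0362) and 0.22 in males (adjusted p = 0.0486), and the anchor Sdhc rose by 0.18 in males (adjusted p = 0.0348) and differed by 0.04 in females (adjusted p = 0.812). In females alone with the replicate block Sdhb and Sdhd did not pass (adjusted p = 0.0641 and 0.0642).

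In complex III the median was 0.11 in females and 0.19 in males over 8 members, with 2 called higher by the adjusted p in females, 4 in males and none lower. Uqcrq, a small subunit of the complex, was at 10.23, 10.06 and 10.27 in female room air and at 10.56, 10.62 and 10.50 in female hyperoxia. In males it was at 10.24, 10.04 and 10.04, and at 10.47, 10.55 and 10.50. No array of Uqcrq overlapped between exposures, and it rose by 0.37 ± 0.08 in females (SE, adjusted p = 0.00603 by limma) and 0.40 ± 0.08 in males (adjusted p = 0.00359). Another small subunit, Uqcr10, rose by 0.29 and 0.34 (adjusted p = 0.0172 and 0.00773). Uqcr11, also a small subunit, and Uqcrh, the hinge protein, were the lowest by the mean of both sexes, at -0.22 and -0.02 in females and -0.11 and 0.04 in males, and did not pass. For Uqcr11 the second cluster of the gene had the opposite sign in males, at 0.01.

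Complex V had medians of 0.13 in females and 0.20 in males over 17 members. No member passed in females, and 5 rose in males. In females 4 had an unadjusted p under 0.05 by limma. Of these Atp5b, Atp5d and Atp5pb were higher in hyperoxia, and Atp5j was lower (-0.15, adjusted p = 0.0591). Atp5g3, which encodes the c subunit of the rotating ring, had log2 levels of 11.16, 11.09 and 11.27 in female room air, 11.28, 11.38 and 11.26 in female hyperoxia, 11.08, 10.90 and 10.93 in male room air, and 11.25, 11.37 and 11.35 in male hyperoxia. Female arrays overlapped and male arrays did not, and the log2 fold changes were 0.13 (adjusted p = 0.289 by limma) and 0.36 (adjusted p = 0.00532). The other genes for the same c subunit, Atp5g1 and Atp5g2, had 0.17 and 0.03 in females and 0.31 and 0.12 in males, and neither passed. Atp5pb, the b subunit of the peripheral stalk, and Atp5mpl, a small membrane subunit, rose in males by 0.28 (adjusted p = 0.0473) and 0.33 (adjusted p = 0.0261). Atp5h, the d subunit of the same stalk, and Atp5k, the e subunit, had the lowest values of the complex, -0.18 and -0.16 in females and -0.17 and -0.14 in males, none past the threshold.

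Complex IV had the widest spread of changes, from -0.77 to 0.57 in females and from -0.66 to 0.85 in males, with medians of -0.02 and 0.10. In both sexes the lowest value was that of the muscle isoform Cox7a1 and the highest that of Cox6a2. The medians include the isoforms Cox4i2, Cox6a2, Cox6b2, Cox7a1, Cox7b2, Cox8b and Cox8c. A median without these isoforms was not computed. By the adjusted p, 3 of its 17 members rose and 1 fell in females, and 4 rose and 1 fell in males. Cox5a, a subunit that sits with Cox4 on the matrix side, had levels of 10.07, 9.91 and 10.05 in female room air, 10.36, 10.34 and 10.42 in female hyperoxia, 10.16, 9.78 and 9.78 in male room air, and 10.37, 10.43 and 10.35 in male hyperoxia. The exposures did not overlap for Cox5a in either sex, and it rose by 0.36 ± 0.10 (SE, adjusted p = 0.0267 by limma) in females and 0.47 ± 0.10 (adjusted p = 0.00619) in males. The widely expressed isoforms Cox6a1 and Cox7a2 rose as well, by 0.25 and 0.24 in females and 0.33 and 0.27 in males. In females alone with the replicate block neither passed (adjusted p = 0.0517 and 0.0519). Cox8a, Cox6b1, Cox7b and Ndufa4, a subunit of complex IV despite its name, did not pass in either sex, with values from -0.09 to 0.17. The isoforms Cox6b2, Cox7b2 and Cox8c did not pass either, with values from -0.15 to 0.15. Cox7b2 had a low mean level, 5.45.

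Cox4i2 fell in both sexes while its widely expressed counterpart Cox4i1 was not called. Its log2 levels were 9.73, 9.99 and 9.79 in female room air, 9.22, 9.45 and 9.29 in female hyperoxia, 9.87, 10.00 and 9.98 in male room air, and 9.48, 9.36 and 9.31 in male hyperoxia. The exposures did not overlap in either sex. The log2 fold change was -0.52 ± 0.09 in females (SE, 1.44-fold lower, adjusted p = 0.00186 by limma) and -0.565 in males (1.48-fold lower, adjusted p = 0.00106). It stayed below the adjusted p of 0.05 under each alternative run. In females it fell short of 1.4-fold with arrays centred on their median (-0.48), without hyperoxia replicate 1 (-0.47) and without room air replicate 2 (-0.45). Cox4i1 differed by -0.06 in females (adjusted p = 0.571) and 0.10 in males (adjusted p = 0.217).

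Ndufa4l2, best known as a gene raised by low oxygen, fell beside Ndufa4, which was not called. It stood at 8.82, 8.60 and 8.53 in female room air, 7.99, 8.27 and 8.04 in female hyperoxia, 8.52, 8.46 and 8.66 in male room air, and 8.28, 8.19 and 7.99 in male hyperoxia. No arrays overlapped between the exposures. It fell by 0.55 in females (1.46-fold, adjusted p = 0.0055 by limma) and by 0.40 in males (1.32-fold, adjusted p = 0.0279). The female value fell short of 1.4-fold without room air replicate 1 (-0.46). The male value lost its adjusted p without hyperoxia replicate 2 or 3 or room air replicate 1 or 3 (adjusted p of 0.0645, 0.114, 0.0556 and 0.109).

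The change of an isoform relative to its partner on the same array was tested for 5 pairs, with an exact two-sided permutation of the exposure within each sex (400 arrangements, smallest possible p = 0.005). The log2 ratio of Cox4i2 to Cox4i1 fell by 0.463 in females and 0.669 in males (exact permutation p = 0.005, 0.0125 adjusted over the 5 pairs), and that of Ndufa4l2 to Ndufa4 fell by 0.668 and 0.527 (exact permutation p = 0.005, adjusted 0.0125). In both pairs all 6 hyperoxia arrays lay below the room air arrays of their sex. For the muscle isoforms the ratio of Cox7a1 to Cox7a2 differed by -1.01 and -0.922 (permutation p = 0.035, adjusted 0.0583), that of Cox8b to Cox8a by -0.67 and -0.598 (permutation p = 0.205), and that of Cox6a2 to Cox6a1 by 0.321 and 0.522 (permutation p = 0.08, adjusted 0.1), all with overlapping arrays. This test did not use the numbers that the female pools share. Between female pools of the same number, the ratio of Cox7a1 to Cox7a2 differed by -0.79, -0.87 and -1.37 and that of Cox8b to Cox8a by -0.33, -0.74 and -0.94, lower in hyperoxia in all 3 pairs. The test and these differences were added after the values were seen. Cox4i2 and Ndufa4l2 had by then shown no overlap on the same arrays, so their permutation p gives no separate support. The adjustment covers these 5 pairs and no other isoforms.

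Cox4i2 and Ndufa4l2 are known to be abundant in pericytes, so a list of pericyte and smooth muscle genes was added once their values were known. Of its 14 genes other than both members, 1 was called lower in each sex and 1 higher in males, beside the shares over all clusters given above. The gene called lower was Higd1b, a pericyte gene, which fell by 0.84 and 0.88 in log2 (adjusted p = 0.0011 and 0.00076 by limma). Notch3 and Pdgfrb, receptors of these cells, fell by 0.29 and 0.27 in females and 0.29 and 0.33 in males, and Acta2, the smooth muscle actin, rose by 0.40 and 0.61. With both members the median log2 fold change of the list was close to 0, at -0.03 in females and -0.07 in males. The mean log2 level of the list ran from 9.84 to 10.03 in female room air, 9.78 to 9.92 in female hyperoxia, 9.81 to 9.89 in male room air and 9.76 to 9.89 in male hyperoxia. The part of these cells in the fall of both members was not tested.

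A list of genes that low oxygen raises through the transcription factor HIF was also added once the values were known. Of its 20 genes other than both members, 5 were called higher and 1 lower in females, and 6 and 1 in males. Over all clusters 3.59% were called higher and 2.93% lower in females, and 3.94% and 3.39% in males. The list was split around 0: with both members its median was -0.05 in females and -0.01 in males. By the adjusted p alone 7 of these 22 genes rose and 5 fell in each sex, both members among the 5. Adm, which encodes adrenomedullin, rose by 2.12 and 2.40, and the glucose transporter gene Slc2a1 by 0.99 and 1.09. The gene called lower was Bnip3l, a mitophagy receptor, which fell by 0.51 and 0.50.

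**Figure D2:**
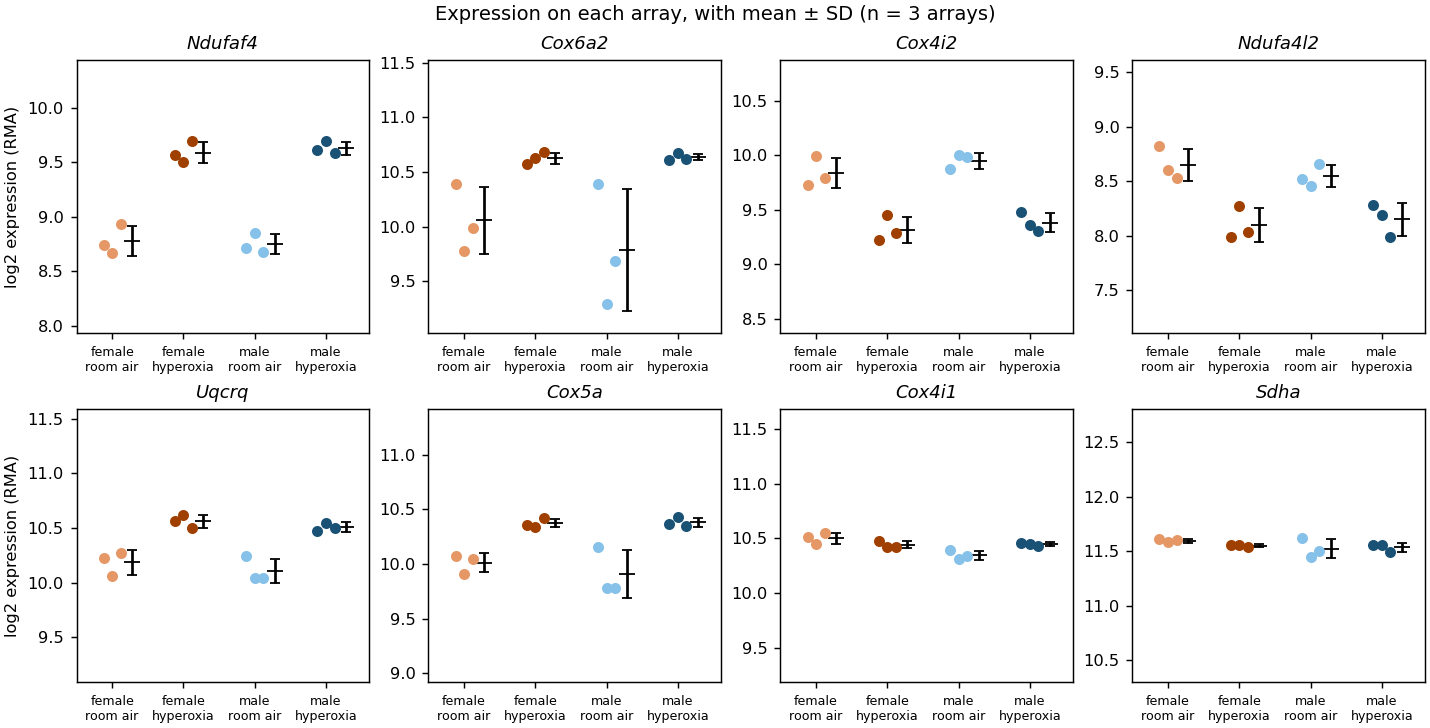
Log2 expression (vertical axis, the same span of 2.5 log2 units in every panel) of 8 genes on each array, in the 4 groups on the horizontal axis. Points are arrays and the black bar is the mean ± SD of 3 arrays. Ndufaf4 lay higher and Cox4i2 and Ndufa4l2 lower on all hyperoxia arrays, Uqcrq and Cox5a rose by less, and Cox4i1 and Sdha stayed close to their room air levels.

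Cox6a2, the muscle form of a complex IV subunit, was higher on every hyperoxia array than on any room air array of the same sex. Its levels were 10.39, 9.78 and 9.99 in female room air, 10.57, 10.63 and 10.68 in female hyperoxia, 10.39, 9.29 and 9.68 in male room air, and 10.61, 10.67 and 10.62 in male hyperoxia. The spread was much wider in room air (SD 0.31 in females and 0.556 in males) than in hyperoxia (SD 0.054 and 0.028). It rose by 0.85 in males (1.80-fold, adjusted p = 0.0283 by limma), and in females the value was 0.57 (1.48-fold, adjusted p = 0.145). The male call was lost when males were fitted alone (adjusted p = 0.0898), and without any 1 male pool other than room air replicate 1 (adjusted p from 0.0722 to 0.0939). Without male room air replicate 1 both the male and the female value passed (adjusted p = 0.00135 and 0.0258).

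Cox7a1 and Cox8b varied between pools more than any other members. Their SD within groups, pooled over the 4 groups, was 0.699 and 0.799, against a median of 0.087 over the members and 0.115 over all genes. Cox7a1 had levels of 10.67, 9.44 and 10.60 in female room air, 10.12, 8.79 and 9.48 in female hyperoxia, 10.65, 8.98 and 9.61 in male room air, and 8.65, 9.73 and 8.88 in male hyperoxia. The exposures overlapped in both sexes, and differences of -0.77 in females and -0.66 in males did not pass (adjusted p = 0.415 and 0.511 by limma). For Cox8b they were -0.57 and -0.43 (adjusted p = 0.666 and 0.78). In females alone with the replicate block both genes passed, at adjusted p = 0.0287 and 0.0271.

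The same pools differed in the mean level of 20 cardiac muscle markers, which the lung can carry in its pulmonary veins or from attached heart tissue. This mean ran from 9.38 to 10.21 in female room air, 8.61 to 9.98 in female hyperoxia, 8.88 to 10.45 in male room air and 8.49 to 9.46 in male hyperoxia, their median log2 fold change was -0.58 in females and -0.66 in males, and none of the 20 was called by limma in either sex (3 in females and 6 in males at an unadjusted p under 0.05). With this mean as a covariate, Cox7a1 differed by -0.15 in females and 0.10 in males, and Cox8b by 0.13 and 0.42, none past the threshold. Cox6a2 then differed by 0.76 in females (adjusted p = 0.0301) and 1.08 in males (adjusted p = 0.00602). That fit gives all groups the same slope on the marker mean. On the hyperoxia arrays Cox6a2 stayed between 10.57 and 10.68 while the marker mean ran from 8.49 to 9.98. The values of Cox6a2 with the covariate therefore rest on a slope that its hyperoxia arrays do not show. The skeletal muscle markers ranged more widely, from 7.80 to 10.78 over all arrays, and none of 12 was called by limma or had an unadjusted p under 0.05.

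**Figure D3:**
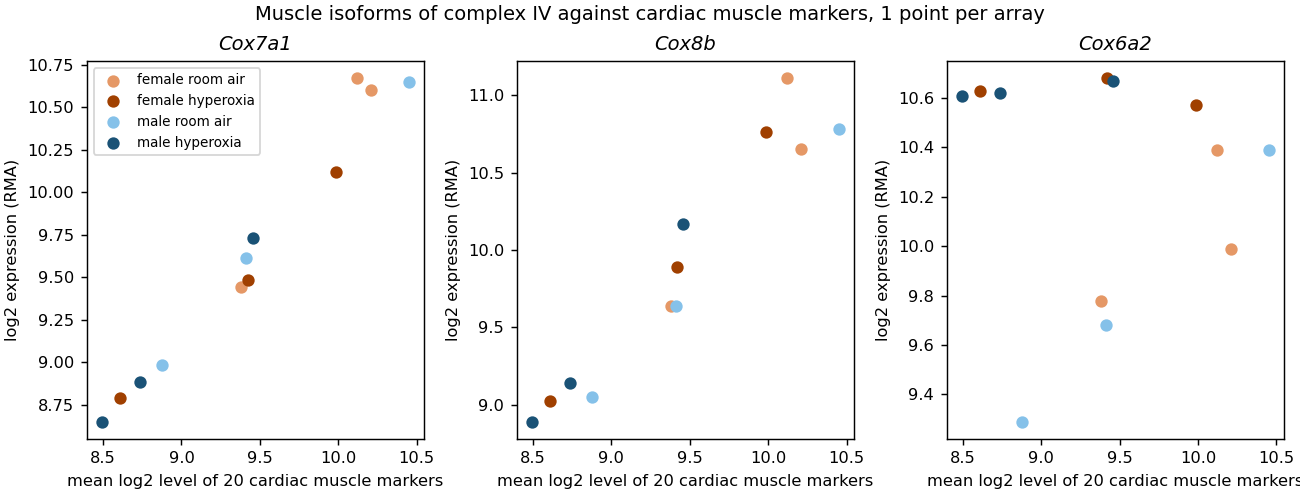
Log2 expression of 3 muscle isoforms of complex IV (vertical axis) against the mean log2 level of 20 cardiac muscle markers on the same array (horizontal axis), 1 point per array, coloured by group. Cox7a1 and Cox8b are higher on arrays with more of the cardiac markers, whatever the exposure, while all 6 hyperoxia arrays of Cox6a2 lie between 10.57 and 10.68.

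Among the 7 assembly factors of complex I, Ndufaf4 showed the largest change of all members called. It was at 8.74, 8.67 and 8.93 in female room air, 9.57, 9.50 and 9.69 in female hyperoxia, 8.71, 8.85 and 8.68 in male room air, and 9.61, 9.69 and 9.58 in male hyperoxia. Every hyperoxia array exceeded every room air array by more than the spread within a group. The log2 fold change was 0.81 ± 0.08 in females (SE, 1.75-fold, adjusted p = 9.62e-05 by limma) and 0.88 ± 0.08 in males (1.84-fold, adjusted p = 4.82e-05), and it kept its adjusted p and its 1.4-fold change under each alternative run. Ndufaf2 rose by 0.32 in males (adjusted p = 0.0185) with 0.20 in females (adjusted p = 0.14). Ndufaf3, which binds Ndufaf4 during assembly, fell by 0.28 in females (adjusted p = 0.0362) with -0.17 in males (adjusted p = 0.211). The remaining 4 did not pass in either sex.

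Assembly factors with other names behaved in a similar range. Of 42 measured, 8 rose in females and 12 in males by the adjusted p, and 1 and 4 also by 1.4-fold. None fell, and the median was 0.06 and 0.11. Over all clusters 9.08% and 10.0% rose by the adjusted p, and 3.59% and 3.94% also by 1.4-fold. By the adjusted p 8.62% and 9.30% of all clusters fell. Tmem126a, a complex I assembly factor, rose by 0.63 in both sexes. Cox18, which inserts a complex IV subunit into the membrane, rose by 0.44 in females and 0.64 in males, and Lrpprc, which stabilises mitochondrial messages, by 0.44 and 0.51. Of 9 subunits and electron carriers outside the prefixes, Cyc1, the cytochrome c1 of complex III, rose by 0.29 and 0.41. Atpif1, the inhibitor of complex V, fell by 0.35 and 0.29, and 2 others, the flavoprotein gene Etfb and the glycerol phosphate dehydrogenase gene Gpd2, fell in both sexes. Only 2 subunits encoded in mitochondrial DNA had a cluster of 1 symbol, and neither was called by limma or had an unadjusted p under 0.05.

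Genes that import and fold mitochondrial proteins were described beside the subunits. Of 23 genes of mitochondrial membranes, protein import and chaperones, 15 rose in females and 17 in males by the adjusted p, and 8 in each sex by 1.4-fold, with none lower. The shares of all clusters that rose were 9.08% and 10.0% by the adjusted p, and 3.59% and 3.94% with the fold. The median of the 23 genes was 0.39 and 0.41. Hspa9, the chaperone that pulls proteins into the matrix, rose by 1.23 and 1.31, the import channel gene Timm23 by 0.64 and 0.70, and the folding chaperone gene Hspd1 by 0.60 and 0.74. Of 19 genes of mitochondrial biogenesis and transcription, 2 rose by 1.4-fold in each sex, and the median was 0.00 in females and 0.01 in males. These were the coactivators Ppargc1a, up by 0.92 and 1.32, and Pprc1, up by 0.96 and 0.86.

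The pathways that feed the chain were described with 3 lists, to be read beside the 9.08% and 10.0% of all clusters that rose in females and males by the adjusted p. Of 12 genes of coenzyme Q synthesis, 2 rose in females and 4 in males by the adjusted p, and only Coq10b, a coenzyme Q binding protein, did so by 1.4-fold in both sexes (0.81 and 0.88). Of 17 genes of the citric acid cycle and pyruvate dehydrogenase, 2 rose in females and 4 in males, and Idh3a, a subunit of isocitrate dehydrogenase, rose by 0.43 and 0.56. Of 18 genes of glycolysis and its regulators, 6 rose and 2 fell in females and 7 rose and 2 fell in males. Besides Slc2a1, Pfkfb3, which makes an activator of glycolysis, rose by 0.60 and 0.75. Pdk4, a kinase that switches off pyruvate dehydrogenase, rose by 1.46 in males (adjusted p = 0.0064 by limma), with 0.86 in females (adjusted p = 0.084). The medians of these 3 lists were 0.13, 0.16 and 0.06 in females and 0.17, 0.17 and 0.15 in males.

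**Figure D4:**
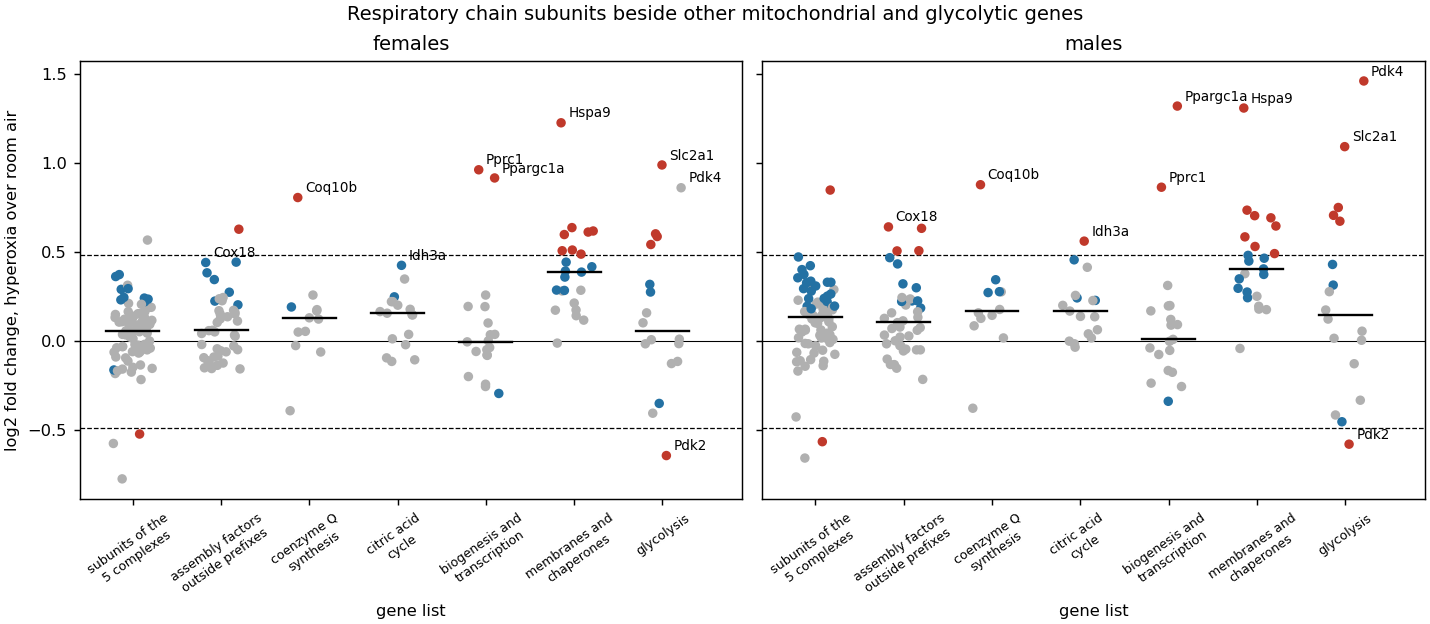
Change in hyperoxia relative to room air (vertical axis, log2 fold change) of the 80 subunits and of 6 other gene lists, 1 point per gene, in females (left) and males (right). Black bars are medians, dashed lines mark a 1.4-fold change, red points passed that fold and an adjusted p of 0.05 and blue points the adjusted p alone. The genes of membranes and chaperones have medians of 0.39 and 0.41, the subunits 0.06 and 0.14.

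The last comparison asked whether the sexes differed. No member passed in the interaction, which subtracts the female change from the male one, and where 0% of all clusters were called. All adjusted p-values were 1. At an unadjusted p under 0.05 by limma there was 1 member, Cox4i1, with an interaction of 0.16. The next smallest by limma were Atp5g3 (0.22, unadjusted p = 0.0522) and Ndufa11 (0.18, unadjusted p = 0.0563). So the larger count in males was not shown to differ from that in females. The interaction was above 0 for 78 of 89 members (87.6%), against 54.0% of all clusters, with a median of 0.08 against 0.01 over all clusters. Beside this stood the room air levels, which were lower in males than in females for 79 of 89 members (median -0.07, all clusters 0.02), with the median at 0.01 in hyperoxia. No member passed in either sex difference by limma, where 0.0141% of all clusters were called in room air and 0.0169% in hyperoxia. At an unadjusted p under 0.05 there were 3 members in room air and 0 in hyperoxia.

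The pools differed in other cell types too. Markers of squamous epithelium, which a healthy alveolus lacks, ran from 7.41 to 10.77 in mean log2 level over the arrays, and the 3 richest pools were female, room air replicates 1 and 3 and hyperoxia replicate 1. None of the 17 markers was called by limma or had an unadjusted p under 0.05. Leaving these 3 out left 1 female room air pool and 2 female hyperoxia pools, so the female values then rest on a lone room air array that is assumed to vary like the other groups. Without them, the median of the members in females was 0.117, 1 member rose and 1 fell by the adjusted p in females, and 13 rose in males. Cox4i2 then stood at -0.62 in females (adjusted p = 0.0256 by limma) and Ndufaf4 at 0.93 (adjusted p = 0.00816), while Ndufa4l2 lost its female call (-0.44, adjusted p = 0.191) and Cox6a2 its male call (adjusted p = 0.0607). Lung cell markers moved with hyperoxia: 6 of 10 markers of alveolar type II cells were called lower in females and 3 in males, 5 of 12 endothelial markers in each sex, 3 of 11 of ciliated cells and 2 of 7 of club cells in each sex, and 5 of 10 of neutrophils in males and none in females, where none had an unadjusted p under 0.05. Of 8 alveolar type I markers 1 was called higher and 1 lower in each sex, and of 8 macrophage markers 3 were called higher and 1 lower in females, and 2 and 1 in males. The surfactant gene Sftpc, which defines type II cells, was present on all arrays and fell by 0.23 and 0.26. Of 9 brown adipocyte markers 1 was called lower in each sex. These marker counts stand beside the 3.59% of all clusters called higher and 2.93% lower in females, and 3.94% and 3.39% in males. The part of these cell types in the values of the members was not tested.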

How the data were processed

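The authors deposited log2 values of Affymetrix Mouse Gene ST arrays, made with Robust Multichip Average (RMA, named in the submitters' notes): background correction, quantile normalization and median polish of each cluster's probes. RMA makes array distributions alike, so a shift shared by all genes would not show. Clusters were named from the platform's annotation: 21789 had 1 symbol, 1621 several and 12146 were not listed. A further 6 clusters with a member prefix among several symbols were left out.

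The means of the 4 groups were fitted with limma 3.58.1 in R 4.3.3 over all 35556 clusters, with no filter, for the effect of hyperoxia in females and in males, its difference between them, and the sex difference in each exposure. Calls used a Benjamini-Hochberg adjusted p under 0.05, with and without a fold of 1.4. The procedure was tested on simulated data. Array medians were 8.12 to 8.20. Same-numbered female pools deviated together across exposures (r = 0.283, 0.698 and 0.465), male pools did not all (-0.169, 0.33 and 0.226), so the block was used for females beside the unpaired results. Of the female pools with unlike numbers, room air replicate 3 and hyperoxia replicate 1 also deviated together (r = 0.582). The other unlike pairs ran from -0.741 to -0.023. The labels do not say that a number marks a pairing or a batch, so the block is an assumption. The labels give pools as biological replicates, with n = 3 a group in the results as reported; alternatives that leave out pools have fewer.

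Members and gene lists were chosen with earlier results of these data known. Members named were those called, the 2 lowest and highest of each complex by mean change, all of complex II, isoform pairs, the 3 with the smallest interaction p, and up to 3 called genes of each list with the largest mean absolute change. Ndufaf2, Ndufaf3, Atp5b, Atp5d, Atp5j, Cyc1, Atpif1, Etfb, Gpd2, Adm, Bnip3l, Sftpc and the pericyte genes were chosen after their values were seen.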

Additional observations from a re-analysis of the deposited data

How the results depend on the processing

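No called value changed direction, and Ndufaf4 and Cox4i2 kept an adjusted p under 0.05 in both sexes under each alternative run. The counts of members past a threshold moved more. Higher in females with the 1.4-fold threshold there were 2 with cardiac markers as a covariate, 5 at 1.2-fold, 0 among subunits alone, and 1 to 2 with each pool left out. Lower in females there was 1 with arrays centred on their median, without the 3 pools richest in squamous markers or among subunits alone, 4 in females alone with the replicate block, and 1 to 2 with each pool left out. By the adjusted p alone, higher in females there were 3 with each sex fitted alone, 1 without those 3 pools, 4 with the female replicate block, 2 at an adjusted p of 0.01, and 2 to 11 with each pool left out. Lower in females there were 2 with the replicate block over all groups, each sex alone, centring, the threshold of 0.01 or subunits alone, 1 without the 3 pools, 7 after a further quantile normalization, 8 with a trended robust prior or 1 cluster per gene, and 2 to 5 with each pool left out. In males the higher count with the fold was 1 with each sex alone, without the 3 pools, at 0.01 or among subunits, 16 at 1.2-fold, and 1 to 3 with each pool left out. The lower count was 2 at 1.2-fold. By the adjusted p alone, 14, 13 and 8 rose in males with each sex alone, without the 3 pools and at 0.01, and 10 to 25 with each pool left out. There was 1 lower in males with the replicate block, under which Ndufa4l2 missed the threshold (adjusted p = 0.054) and the male calls of Sdhc, Sdhd, Cox7a2, Atp5pb and Ndufb6 were lost, 1 at 0.01 or among subunits, and 1 to 2 with each pool left out. The female median was 0.117 without the 3 pools. Without those pools the female room air group holds 1 array, assumed to vary like the other groups. The cause of these changes was not tested. Centring moved the median of all clusters to 0.02 in females and 0.04 in males. The covariate for cardiac markers, the fits without the 3 pools and the female block were chosen after seeing the data. With 3 pools a group, a missed threshold does not show that a gene stayed level.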
